A study of Mus musculus with 16 samples.

Results

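The genes described here are those of the amino acid and neurotransmitter transporter families Slc1, Slc3, Slc6, Slc7, Slc36, Slc38 and Slc43. Members were all protein-coding genes whose symbol begins with one of these family names, apart from Slc1a2, Slc1a3, Slc7a5, Slc7a11 and Slc38a5, which the choice left out. The rule found 59 genes among 33289 gene IDs, of which 19140 are protein-coding, and 58 of them are reported here: 5 of Slc1, 2 of Slc3, 20 of Slc6, 14 of Slc7, 4 of Slc36, 10 of Slc38 and 3 of Slc43. One name the rule takes in, Slc7a6os, is a neighbour of Slc7a6 on the opposite strand and not a transporter gene. It is described apart from the transporter groups. It is nonetheless included in the 58, in the 14 of Slc7 and in every count, sum and median over the members. A gene was tested where its level reached 0.5 RPKM (the read number scaled to gene length and library size, so that levels of different genes can be compared) in at least 3 libraries, which 39 of the 58 did and 19 did not.

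These carriers move amino acids and their relatives across membranes. Some Slc1 and Slc6 proteins use the sodium gradient to clear glutamate, GABA, glycine or the monoamines from the synaptic cleft, and thereby help to end transmission, while others carry neutral amino acids, taurine or creatine. Slc7 light chains exchange amino acids and reach the membrane bound to an Slc3 heavy chain, the Slc38 proteins carry glutamine and other small neutral amino acids between astrocytes and neurons, and Slc36 proteins move amino acids together with protons, in part across the lysosomal membrane.

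RNA was sequenced from the PBS-perfused hemi-brains of C57BL/6J mice aged 3 to 4 months, taken 8 h after an injection of saline or of LPS (lipopolysaccharide, a component of the bacterial outer membrane that provokes inflammation). There were 4 groups of 4 libraries: wild type with saline, wild type with LPS, mice labelled Lcn2-/- (for lipocalin-2, a secreted carrier of iron-binding siderophores) with saline, and mice labelled Lcn2-/- with LPS. The sources used here name neither the dose and route of injection nor the construction of the Lcn2 allele. Bulk tissue was measured, so fewer cells of a type and less RNA per cell cannot be told apart.

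Lcn2, the targeted gene, lay between 66.7 and 82.7 RPKM in wild-type LPS libraries and between 34.1 and 40.2 RPKM in LPS libraries labelled Lcn2-/-, against at most 0.351 RPKM after saline. Its transcript was thus measured in the libraries labelled Lcn2-/-, and every genotype comparison below is one of labels. Saline replicate 4 labelled Lcn2-/- stood apart, with 17112 genes at 0.5 RPKM or more where the other libraries had 16372 to 16497, and calls that are gained or lost without it are given beside the genes concerned. The neuron markers summed to between 960.0 and 1061 RPKM over all libraries, and cerebellar markers to between 248.6 and 305.8 RPKM, so the labelled tissue carried the transcripts of both. Normalized levels and no read counts were analysed, so the depth of each library is unknown.

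In wild-type saline brain, Slc6a17, a vesicular carrier of neutral amino acids, and Slc6a11, the astrocytic GABA transporter, had the highest levels of the 58, at 38.7 and 38.7 RPKM (geometric means, n = 4), with overlapping libraries. The next were Slc3a1 at 29.1 RPKM, Slc38a2 at 28.3 RPKM, Slc38a1 at 26.5 RPKM, Slc3a2 at 23.9 RPKM and Slc1a6 at 22.3 RPKM. Slc3a1 shares 26.5% of its exon bases with Prepl on the opposite strand, which was at 38.7 RPKM in the same group. The sources used here do not say whether counting used strand, so the level and rank of Slc3a1 may include reads of Prepl. In that group 38 members reached 0.5 RPKM, 35 reached 1 RPKM, 19 reached 10 RPKM and 7 reached 20 RPKM. The top 10 held between 55.8% and 56.5% of the summed RPKM of the 58 in its 4 libraries. Summed levels lay between 445.6 and 463.1 RPKM in wild-type saline, 446.6 and 454.0 RPKM in wild-type LPS, 452.3 and 490.3 RPKM in saline labelled Lcn2-/-, and 416.1 and 433.0 RPKM in LPS labelled Lcn2-/- libraries.

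**Figure D1:**
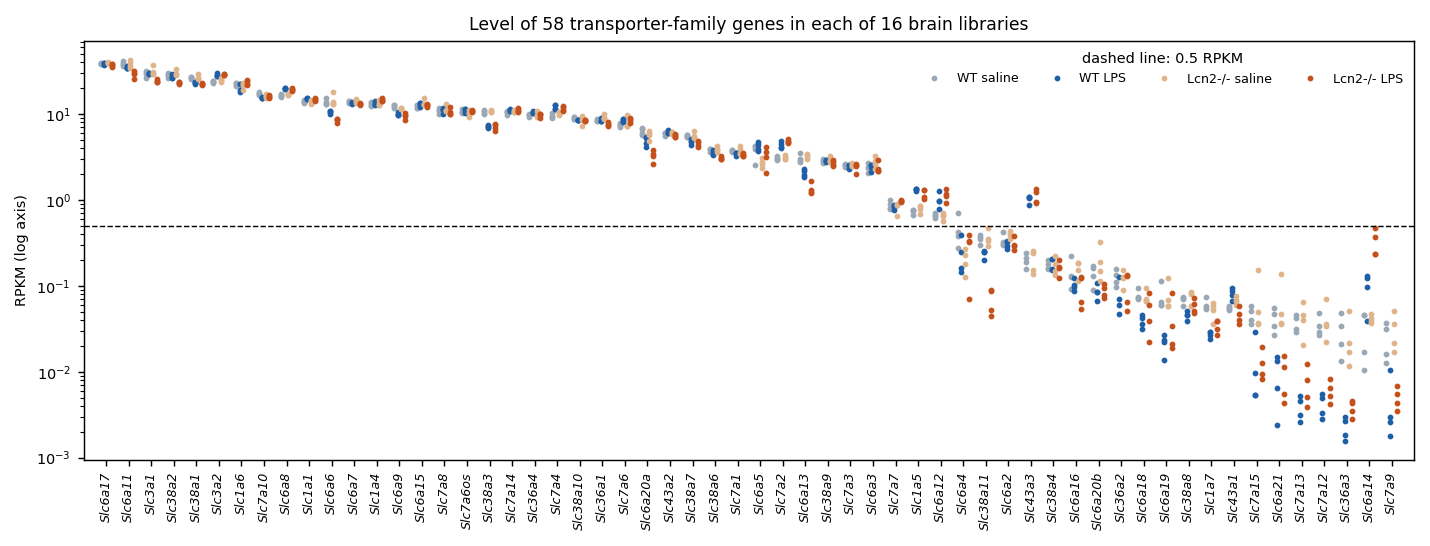
Level of each of the 58 genes (x axis, in falling order of the wild-type saline geometric mean) in each of the 16 libraries, in RPKM on a log axis, with 1 point per library coloured by group. The dashed line marks 0.5 RPKM, and the genes at the right lie below it in nearly all libraries.

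After LPS in wild-type mice, 16 of the 39 tested members changed, 8 higher and 8 lower (41%, where 25.3% of all 17349 tested genes were called; 11.4% higher and 13.9% lower). Calls are adjusted p-values under 0.05 from limma with Benjamini-Hochberg adjustment over all tested genes. The members higher were Slc6a8, Slc6a12, Slc1a1, Slc1a5, Slc3a2, Slc7a2, Slc7a4 and Slc43a3, and those lower were Slc6a6, Slc6a13, Slc6a9, Slc6a20a, Slc7a10, Slc38a1, Slc38a3 and Slc38a7. In mice labelled Lcn2-/-, LPS changed 22 of 39, 7 higher and 15 lower (56.4%, against 48.3% of all genes; 20.7% higher and 27.7% lower). Of the 39, 7 were higher in both genotypes and 7 lower in both, 1 was higher and 1 lower in wild type only, 8 were lower in mice labelled Lcn2-/- only, 15 were called in neither, and 0 were called in opposite directions. This cross-count was not made over all genes, where 25.3% were called in wild type and 48.3% under the Lcn2-/- label, so it has no background. Without saline replicate 4 labelled Lcn2-/- the counts in wild type were 10 higher and 8 lower. In mice labelled Lcn2-/- they were then 10 higher and 15 lower. Over all 17261 genes tested in that setting, 2582 were higher and 3436 lower in wild type, against 1980 and 2409 with every library. Under the Lcn2-/- label they were 3585 and 4867, against 3588 and 4798. With no filter on low values, so that all 58 were tested, 17 were lower in wild type and 25 in mice labelled Lcn2-/-. Over all 33289 genes 11480 and 13898 were lower in that setting. Some members share 10% or more of their exon bases with another measured gene. Without these, 6 of 33 were higher and 5 lower in wild type, and 6 higher and 12 lower in mice labelled Lcn2-/-. A call in 1 genotype alone does not show a difference between genotypes, which the interaction given further on tests.

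The changes were mostly small. The median absolute log2 fold change of the tested members was 0.13 in wild type and 0.22 in mice labelled Lcn2-/-. Over all tested genes it was 0.12 and 0.20. The signed median, in which rises and falls offset each other, was 0.0078 in wild type and -0.093 in mice labelled Lcn2-/-, beside -0.025 and -0.028 over all tested genes. At least a 2-fold change was reached by 1 called member in wild type, Slc43a3, and by 2 in mice labelled Lcn2-/-, Slc43a3 and Slc6a13. The share of all tested genes with such a change was not counted. The 4 saline and 4 LPS libraries did not overlap for 22 members in wild type (56.4%, against 32.4% of all genes) and for 21 in mice labelled Lcn2-/- (53.8%, against 42.4%). Slc43a3 reached 0.5 RPKM in LPS libraries alone, so it had to differ to be tested at all; without it, 7 higher and 8 lower of 38 remain in wild type, and 6 higher and 15 lower in mice labelled Lcn2-/-.

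**Figure D2:**
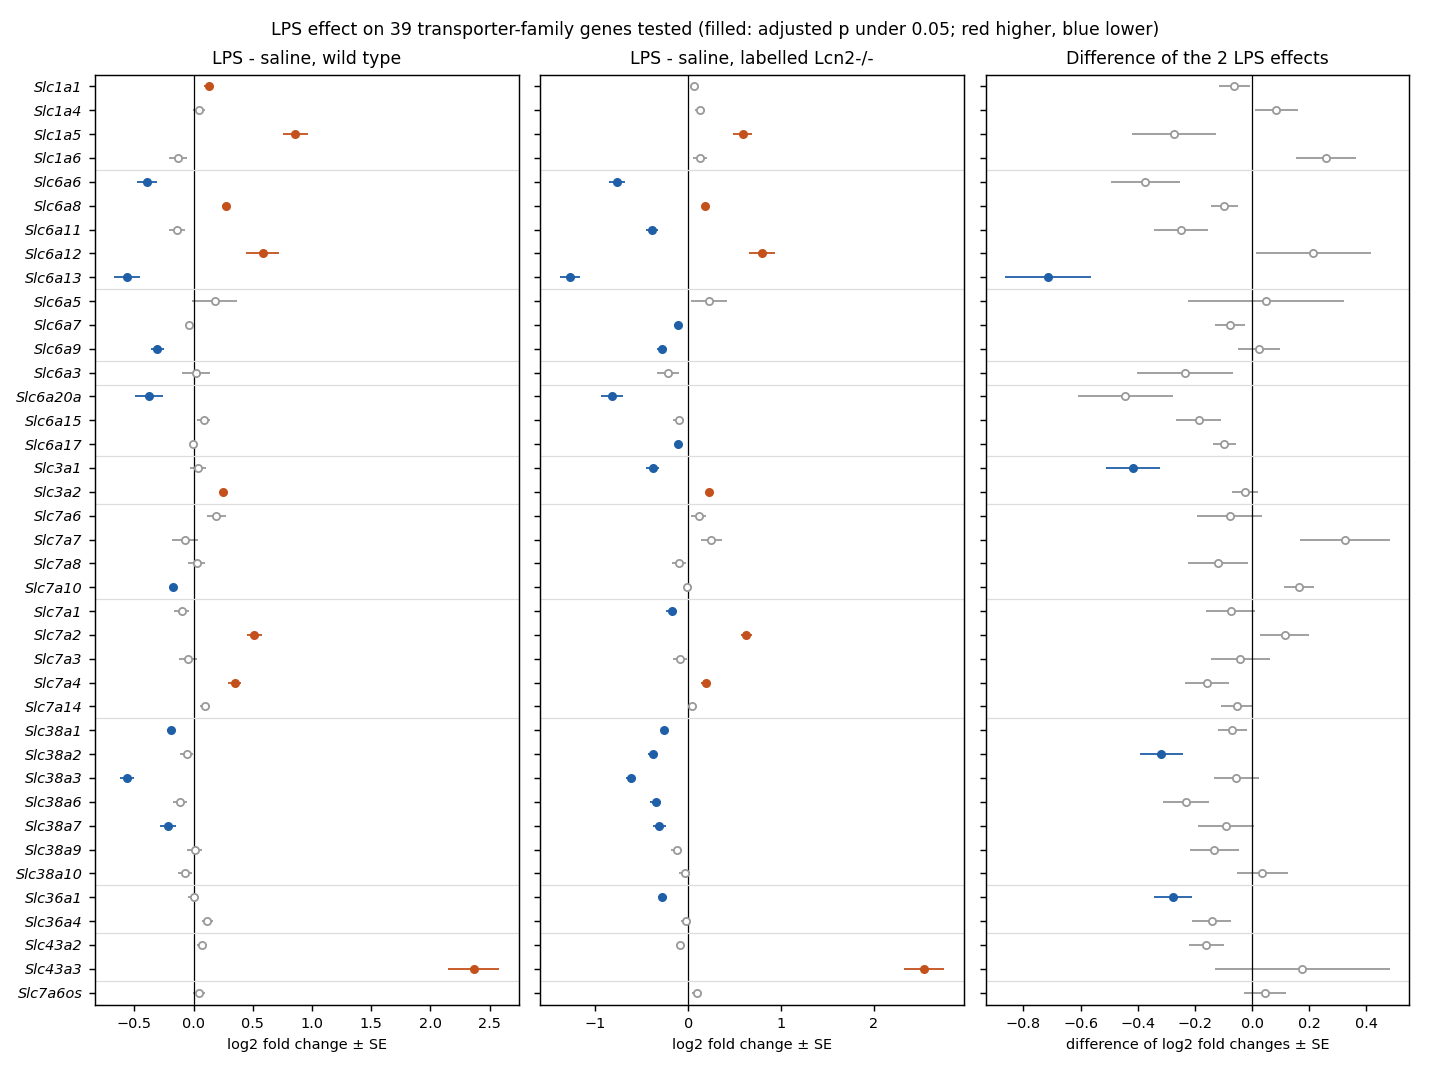
Log2 fold change after LPS in wild type (left), in mice labelled Lcn2-/- (middle) and the difference between them (right) for the 39 tested genes, as estimate with SE from limma, on linear log2 axes. Filled points have an adjusted p under 0.05; Slc43a3 lies farthest right in the left and middle panels and Slc6a13 farthest left in the middle and right panels.

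The GABA, betaine, taurine and creatine transporters reported here (5 genes, all tested) moved in opposite directions within the group: 2 rose and 2 fell after LPS in wild type, and 2 rose and 3 fell in mice labelled Lcn2-/- (median log2 fold changes -0.14 and -0.39). Slc6a13, a GABA and taurine carrier known from the meninges and liver, fell in both genotypes. It was at 3.55, 3.01, 2.85 and 2.77 RPKM in wild-type saline and 2.15, 1.94, 2.31 and 1.83 RPKM in wild-type LPS libraries. The saline libraries labelled Lcn2-/- held 3.38, 3.005, 3.19 and 3.48 RPKM and their LPS counterparts 1.32, 1.245, 1.201 and 1.66 RPKM. LPS libraries lay below all saline libraries in each genotype, and the LPS libraries labelled Lcn2-/- lay below all others. The log2 fold change was -0.56 ± 0.11 (SE, n = 4 per group as in every value of this kind here) in wild type (limma adjusted p = 0.000946) and -1.28 ± 0.11 in mice labelled Lcn2-/- (limma adjusted p = 1.22e-07), 2.42-fold lower with LPS in the latter. The difference between the 2 falls was -0.71 ± 0.15, with a limma adjusted p of 0.0132 (-0.68 and 0.0119 without saline replicate 4 labelled Lcn2-/-), and the LPS groups differed by genotype label by -0.61 ± 0.11, with an adjusted p of 0.00179.

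Slc6a12, the betaine and GABA transporter, lies next to Slc6a13 and moved the other way. Its values were 0.704, 0.6504, 0.661 and 0.624 RPKM in wild-type saline, 0.973, 0.963, 0.792 and 1.28 RPKM in wild-type LPS, 0.709, 0.568, 0.648 and 0.672 RPKM in saline labelled Lcn2-/- and 1.18, 1.11, 0.915 and 1.33 RPKM in LPS labelled Lcn2-/- libraries. Every LPS library lay above every saline library. The log2 fold change was 0.58 ± 0.14 (limma adjusted p = 0.00617) in wild type and 0.80 ± 0.14 (limma adjusted p = 0.000294) in mice labelled Lcn2-/-. With 0.5 RPKM added to each value before the log, the changes of Slc6a12 were 0.36 and 0.50, and both stayed called. The interaction of 0.21 ± 0.20 had an adjusted p of 0.505.

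The pair shares a strand and a stretch of chromosome 6. In GENCODE vM21 on GRCm38, Slc6a13 spans chr6:121300227-121337733 and Slc6a12 spans chr6:121343076-121365775, both on the plus strand, with 5342 bases between them. The sequences before their start sites are shown because these neighbours moved in opposite directions after the same injection. They are from RefSeq on GRCm38.p6, plus strand, 5′ to 3′, chr6:121300038-121300226 (189 bases) for Slc6a13 and chr6:121342826-121343075 (250 bases) for Slc6a12, and capitals mark matches to the motifs searched.
Slc6a13: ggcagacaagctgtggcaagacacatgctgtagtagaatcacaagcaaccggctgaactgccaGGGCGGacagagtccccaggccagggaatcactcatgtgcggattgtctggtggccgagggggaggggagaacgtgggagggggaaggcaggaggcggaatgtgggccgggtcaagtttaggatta
Slc6a12: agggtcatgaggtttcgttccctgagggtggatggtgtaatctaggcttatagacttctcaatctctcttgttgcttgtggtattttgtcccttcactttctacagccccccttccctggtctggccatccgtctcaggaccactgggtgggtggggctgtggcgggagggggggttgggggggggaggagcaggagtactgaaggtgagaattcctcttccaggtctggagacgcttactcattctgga
The capitals in Slc6a13 are a GC box (GGGCGG), whose first base lies 187 bases before the RefSeq start site. A further GGGCGG begins 50 bases before that site, past the GENCODE start of the gene, and is not printed. The Slc6a12 window held no match to any of the 7 motifs.

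The same 7 motifs were searched on both strands in the 250 bases before the start site of the 42 members with a RefSeq entry in the promoter set used. Matches of different motifs may overlap. Members without an entry were not searched. They include Slc43a3, Slc7a2, Slc7a4, Slc1a5, Slc6a8, Slc6a6, Slc38a1 and Slc38a3, all called after LPS in wild type. The RefSeq start lay farthest from the GENCODE start for Slc6a19 (12229 bases), Slc3a2 (9472) and Slc6a21 (5360). GGGCGG was found in 26 of the 42 (33.0% of 32536 promoters of the same length) and CCAAT in 10 (33.8%). The NF-kB motif was found in 5 (7.28%), TTCNNNGAA of the STAT factors in 1 (7.04%) and TGANTCA of AP-1 in 7 (6.73%). TGATGNAAN, the amino acid response element, was found in 2 (3.38%) and the glucocorticoid response element in 1 (0.39%). Such a match is a run of letters and not a measured site.

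Slc6a6, the taurine transporter, fell in both genotypes. It was at 15.4, 13.9, 13.2 and 13.2 RPKM in wild-type saline and 10.9, 10.6, 9.92 and 10.8 RPKM in wild-type LPS libraries. For the Lcn2-/- label it was at 13.7, 13.2, 13.2 and 18.1 RPKM after saline and 8.69, 8.63, 7.795 and 8.801 RPKM after LPS. Saline and LPS libraries did not overlap in either genotype, nor did the 2 LPS groups. The log2 fold changes were -0.40 ± 0.086 and -0.77 ± 0.086 (limma adjusted p = 0.00256 and 2.91e-06). The larger fall in mice labelled Lcn2-/- missed the threshold for a difference, at -0.37 ± 0.12 and an adjusted p of 0.0646, and without saline replicate 4 labelled Lcn2-/- it was -0.26 with an adjusted p of 0.0335.

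Slc6a8, the creatine transporter, was at 15.8, 16.8, 16.2 and 17.1 RPKM in wild-type saline and at 19.4, 20.4, 19.8 and 20.1 RPKM in wild-type LPS libraries, and at 16.8 to 17.1 and 18.4 to 19.96 RPKM in the corresponding libraries labelled Lcn2-/-. All LPS libraries lay above all saline libraries, with log2 fold changes of 0.28 ± 0.033 and 0.18 ± 0.033 (limma adjusted p = 9.77e-06 and 0.000363). Slc6a11, which takes up GABA into astrocytes, was at 38.1, 41.4, 36.6 and 38.85 RPKM in wild-type saline and 34.4, 34.85, 36.1 and 34.9 RPKM in wild-type LPS libraries. It was at 36.6, 39.1, 34.8 and 42.9 RPKM in saline and 25.6, 31.8, 29.3 and 30.3 RPKM in LPS libraries labelled Lcn2-/-. The wild-type groups did not overlap, the LPS libraries labelled Lcn2-/- lay below all 12 others, and Slc6a11 fell in that genotype, at -0.39 ± 0.066 (limma adjusted p = 0.0001855). In wild type the estimate was -0.14 ± 0.066 with an adjusted p of 0.133, and the interaction was -0.25 ± 0.094 with an adjusted p of 0.103.

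**Figure D3:**
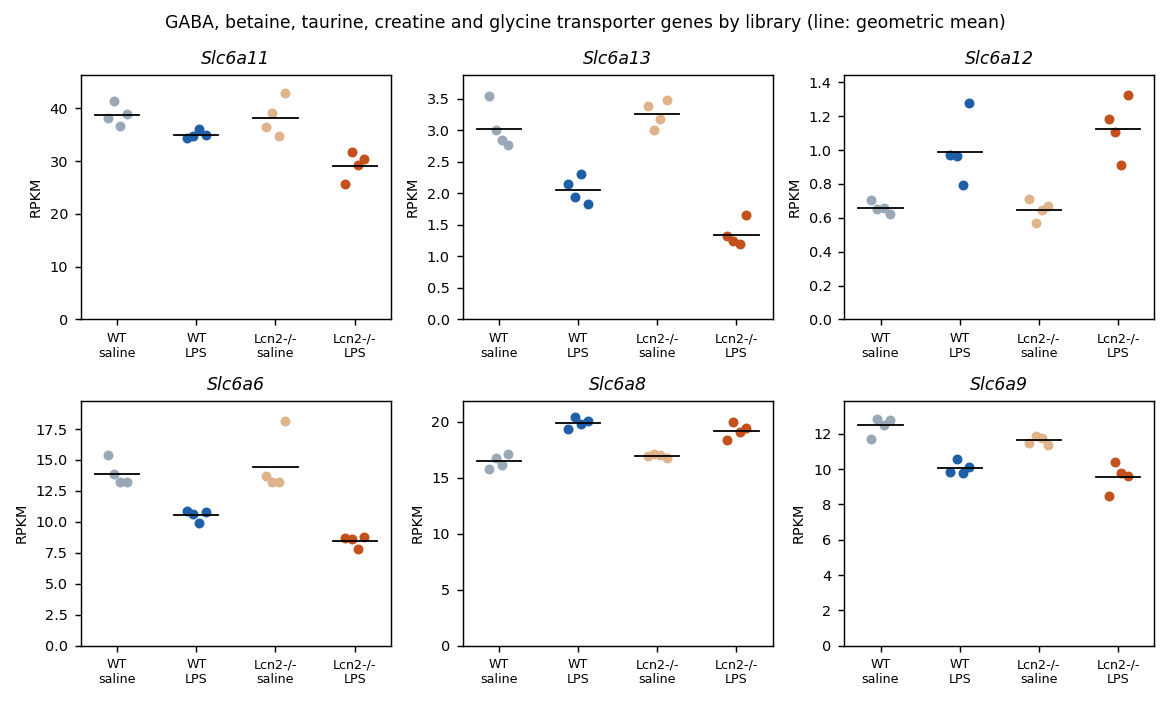
RPKM of Slc6a11, Slc6a13, Slc6a12, Slc6a6, Slc6a8 and the glycine transporter gene Slc6a9 in each library by group (linear axes from 0; points are libraries, n = 4, and lines geometric means). Slc6a13 is lowest in the LPS libraries labelled Lcn2-/-, between 1.20 and 1.66 RPKM, and Slc6a12 and Slc6a8 are higher in all LPS than in all saline libraries.

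Markers of cells that could carry these transcripts were read as well. Over all tested genes, 11.4% were higher and 13.9% lower after LPS in wild type, and 20.7% and 27.7% in mice labelled Lcn2-/-. Of 8 meningeal fibroblast markers, 2 were higher and 4 lower after LPS in wild type and 1 higher and 4 lower in mice labelled Lcn2-/-, with sums of 43.7 to 49.8, 42.8 to 51.5, 43.7 to 47.8 and 40.9 to 46.1 RPKM in wild-type saline, wild-type LPS, saline labelled Lcn2-/- and LPS labelled Lcn2-/- libraries. Of 8 astrocyte markers, 3 and 5 were higher and 0 lower, with sums of 437 to 461, 461 to 502, 421 to 434 and 454 to 488 RPKM in the same order. The 8 choroid plexus markers gave 0 higher and 3 lower in each genotype, with sums of 481 to 502, 420.4 to 460.5, 480.1 to 659.7 and 468.2 to 479.5 RPKM. Of 8 pericyte and smooth muscle markers, 1 was higher and 5 lower in wild type. In mice labelled Lcn2-/-, 0 of these were higher and 6 lower. Their sums were 92.5 to 95.9, 67.8 to 73.4, 84.6 to 93.1 and 62.8 to 73.5 RPKM in the same order of groups. The part of any of these in the transporter changes was not tested.

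Of the glutamate and neutral amino acid carriers (5 genes, 4 tested), 2 rose in wild type and 1 in mice labelled Lcn2-/-, and 0 fell. Slc1a5, which exchanges glutamine and other neutral amino acids, was at 0.765, 0.744, 0.666 and 0.756 RPKM in wild-type saline and 1.34, 1.29, 1.35 and 1.33 RPKM in wild-type LPS libraries. In mice labelled Lcn2-/- it was at 0.685, 0.846, 0.855 and 0.776 RPKM after saline and 1.32, 1.02, 1.09 and 1.32 RPKM after LPS. The LPS libraries lay above all saline libraries, and the log2 fold changes were 0.86 ± 0.10 and 0.59 ± 0.10 (limma adjusted p = 1.2e-05 and 0.0002845; interaction -0.27 ± 0.15, adjusted p = 0.233). With 0.5 RPKM added before the log the changes of Slc1a5 were 0.57 and 0.39, both called.

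Slc1a1, the neuronal glutamate and cysteine carrier, was at 13.6 to 14.6 RPKM in wild-type saline and 14.9 to 15.4 RPKM in wild-type LPS libraries, which did not overlap. Its rise of 0.13 ± 0.038 (limma adjusted p = 0.0187) lost its call when GC content and length trends were removed and when any of wild-type saline replicates 2, 3 and 4 was left out (adjusted p up to 0.0703). Slc1a1 shares 31.9% of its exon bases with 4430402I18Rik, and the sources used here do not say whether counting used strand, so their reads cannot be told apart; that gene's estimate in wild type was 0.22 ± 0.055. Slc1a6, the glutamate transporter of cerebellar Purkinje cells, was the most abundant of the group and was not called, at -0.13 ± 0.074 in wild type and 0.13 ± 0.074 in mice labelled Lcn2-/- (group means 22.3, 20.3, 21.5 and 23.4 RPKM in wild-type saline, wild-type LPS, saline labelled Lcn2-/- and LPS labelled Lcn2-/-). In the same order of groups, Slc1a4, a carrier of serine and alanine, had means of 13.1, 13.5, 13.35 and 14.6 RPKM. Slc1a4 was not called, but without saline replicate 4 labelled Lcn2-/- it was called higher after LPS in mice of that label, at 0.17 (limma adjusted p = 0.0128). Slc1a7, a glutamate transporter of the retina, was not tested, at 0.0242 to 0.0735 RPKM over all libraries.

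Of the glycine and proline transporters (3 genes, all tested), Slc6a9 fell in both genotypes. This gene for the glial glycine transporter was at 11.7, 12.9, 12.5 and 12.8 RPKM in wild-type saline, 9.84, 10.6, 9.803 and 10.1 RPKM in wild-type LPS, 11.5, 11.9, 11.8 and 11.4 RPKM in saline labelled Lcn2-/- and 8.49, 10.4, 9.77 and 9.62 RPKM in LPS labelled Lcn2-/- libraries. The LPS libraries lay below every saline library, with log2 fold changes of -0.31 ± 0.053 and -0.28 ± 0.053 (limma adjusted p = 0.000372 and 0.000412). Slc6a9 shares 27.8% of its exon bases with Ccdc24, whose estimates were -0.35 ± 0.066 and -0.16 ± 0.066. It also shares 9.94% with Gm17114, a noncoding gene at 27.25 RPKM in wild-type saline, whose estimates were -0.36 ± 0.12 and -0.69 ± 0.12. Part of the Slc6a9 reads thus cannot be assigned to 1 gene alone.

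Slc6a7, the brain proline transporter, was at 13.5 to 15.2 RPKM after saline and 12.85 to 13.6 RPKM after LPS in mice labelled Lcn2-/-, ranges that overlap. Its log2 fold change of -0.11 ± 0.037 (limma adjusted p = 0.01945) lost its call when the fit held only those 2 groups and when LPS replicate 1 labelled Lcn2-/- was left out (adjusted p up to 0.0683). In wild type Slc6a7 gave -0.037 ± 0.037. Slc6a5, the glycine transporter of spinal and brainstem glycinergic neurons, varied widely within groups, at 2.545, 4.26, 3.93 and 4.22 RPKM in wild-type saline and 2.07, 4.19, 3.15 and 3.66 RPKM in LPS libraries labelled Lcn2-/-, and was not called in any comparison, with log2 fold changes after LPS of 0.18 ± 0.19 and 0.23 ± 0.19. Of 9 hindbrain markers 3 were tested, and the list summed to 3.50 to 5.64 RPKM in wild-type saline and 2.74 to 5.41 RPKM in LPS libraries labelled Lcn2-/-; its part in the spread of Slc6a5 was not tested.

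Among the monoamine transporters (3 genes), only Slc6a3, the dopamine transporter, was tested, and it was not called, at 0.017 ± 0.12 in wild type and -0.22 ± 0.12 in mice labelled Lcn2-/-. Its group means were 2.39, 2.42, 2.75 and 2.36 RPKM in wild-type saline, wild-type LPS, saline labelled Lcn2-/- and LPS labelled Lcn2-/- brain. Slc6a4, the serotonin transporter, reached 0.5 RPKM in 1 library, where the filter asked for 3, and was not tested. It was at 0.378, 0.7098, 0.425 and 0.279 RPKM in wild-type saline and 0.144, 0.2475, 0.392 and 0.161 RPKM in wild-type LPS libraries. In the saline and LPS groups labelled Lcn2-/- it was at 0.127 to 0.2701 and 0.0697 to 0.3945 RPKM. Slc6a2, the noradrenaline transporter, was at 0.262 to 0.435 RPKM over all 16 libraries. The cell bodies that make these transcripts are few and lie in the midbrain and brainstem.

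Of the other Slc6 amino acid transporters and orphans (9 genes, 3 tested), Slc6a20a fell in both genotypes. This proline and imino acid carrier was at 6.88, 6.64, 5.67 and 6.001 RPKM in wild-type saline and 5.25, 4.63, 5.46 and 4.11 RPKM in wild-type LPS libraries. It was at 6.39, 5.75, 6.01 and 4.855 RPKM in saline and 3.46, 3.78, 2.61 and 3.22 RPKM in LPS libraries labelled Lcn2-/-. The LPS libraries labelled Lcn2-/- lay below all 12 others, and the log2 fold changes were -0.38 ± 0.12 (limma adjusted p = 0.0257) and -0.82 ± 0.12 (limma adjusted p = 3.64e-05). The wild-type call was lost when wild-type saline replicate 1 or 2 or wild-type LPS replicate 2 or 4 was left out (adjusted p up to 0.0932). Slc6a20a shares 13.8% of its exon bases with Gm17120, which gave -0.42 ± 0.12 and -1.11 ± 0.12, and their reads there cannot be told apart.

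Slc6a17, which loads neutral amino acids into synaptic vesicles, was at 39.4 to 40.6 RPKM after saline and 35.4 to 38.1 RPKM after LPS in mice labelled Lcn2-/-. The groups did not overlap and Slc6a17 fell, at -0.10 ± 0.028 (limma adjusted p = 0.00694), a call lost when GC content and length trends were removed (adjusted p = 0.267). Slc6a15, a neuronal carrier of branched-chain amino acids and proline, had means of 12.2, 12.98, 13.6 and 12.7 RPKM in wild-type saline, wild-type LPS, saline labelled Lcn2-/- and LPS labelled Lcn2-/- brain and was not called, at 0.085 ± 0.056 and -0.10 ± 0.056. Slc6a14, a broad carrier of neutral and cationic amino acids, stayed under the filter but was at 0.235, 0.473, 0.373 and 0.238 RPKM in LPS libraries labelled Lcn2-/-, 0.132, 0.122, 0.0389 and 0.09605 RPKM in wild-type LPS libraries and at most 0.0412 RPKM as a mean of either saline group. Its 4 LPS libraries labelled Lcn2-/- lay above the 12 others. Also untested were Slc6a16 (0.0537 to 0.2245 RPKM), Slc6a20b (0.06645 to 0.323 RPKM), Slc6a21 (0.00239 to 0.1385 RPKM), and the renal and intestinal carriers Slc6a18 (0.0223 to 0.0956 RPKM) and Slc6a19 (0.0138 to 0.124 RPKM).

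Both heavy chains were tested. Slc3a2, the partner of most Slc7 light chains in brain, was at 24.3, 24.3, 23.3 and 23.5 RPKM in wild-type saline, 28.2, 27.9, 27.5 and 29.9 RPKM in wild-type LPS, 24.6, 24.75, 23.9 and 26.0 RPKM in saline labelled Lcn2-/- and 29.2, 28.7, 28.6 and 29.4 RPKM in LPS labelled Lcn2-/- libraries. All LPS libraries lay above all saline libraries, and it rose by 0.25 ± 0.033 and 0.22 ± 0.033 (limma adjusted p = 2.99e-05 and 4.84e-05; interaction -0.024 ± 0.046).

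Slc3a1, the heavy chain of the cystine and dibasic amino acid exchanger, behaved differently by genotype label. It was at 31.4, 29.9, 26.2 and 29.2 RPKM in wild-type saline and 30.5, 29.4, 29.4 and 30.02 RPKM in wild-type LPS libraries. Under the Lcn2-/- label it was at 31.1, 29.15, 29.7 and 37.01 RPKM after saline and 24.2, 23.5, 23.6 and 25.8 RPKM after LPS, with the LPS libraries below all 12 others. The log2 fold change was 0.034 ± 0.067 in wild type and -0.38 ± 0.067 in mice labelled Lcn2-/-, a difference of -0.42 ± 0.094 (limma adjusted p = 0.01755; -0.34 and 0.00620 without saline replicate 4 labelled Lcn2-/-). Slc3a1 shares 26.5% of its exon bases with Prepl on the opposite strand, an abundant neuronal peptidase gene at 38.7, 41.2, 44.4 and 33.2 RPKM in wild-type saline, wild-type LPS, saline labelled Lcn2-/- and LPS labelled Lcn2-/- brain. Prepl had an interaction of -0.51 ± 0.14 (limma adjusted p = 0.0345), so a change of Slc3a1 and one of Prepl cannot be told apart without stranded counts. Slc7a9, the light chain that pairs with Slc3a1 in kidney, was at 0.00178 to 0.0507 RPKM.

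Among the Slc7 light chains (8 genes, 4 tested), Slc7a10 fell in wild type. This exchanger of glycine, alanine and D-serine was at 16.9, 17.4, 17.85 and 18.1 RPKM in wild-type saline and 15.55, 15.6, 15.4 and 15.65 RPKM in wild-type LPS libraries, which did not overlap. For the Lcn2-/- label it was at 16.3, 16.2, 16.98 and 15.2 RPKM after saline and 15.5, 16.9, 16.04 and 15.8 RPKM after LPS, and the groups overlapped. The log2 fold changes were -0.17 ± 0.037 (limma adjusted p = 0.00231) and -0.01 ± 0.037, and their difference of 0.16 ± 0.053 missed the threshold (limma adjusted p = 0.0621). Slc7a10 shares 17.9% of its exon bases with Lrp3, which gave -0.051 ± 0.046 in wild type.

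The exchangers of neutral for cationic amino acids, Slc7a6 and Slc7a7, and the large neutral amino acid exchanger Slc7a8 were not called after LPS. Slc7a6 had means of 7.44, 8.48, 7.83 and 8.46 RPKM, Slc7a7 of 0.865, 0.821, 0.815 and 0.969 RPKM and Slc7a8 of 10.9, 11.1, 11.4 and 10.7 RPKM in wild-type saline, wild-type LPS, saline labelled Lcn2-/- and LPS labelled Lcn2-/- brain. The calls of Slc7a6 turned on saline replicate 4 labelled Lcn2-/-, at 9.79 RPKM where the other libraries of its group lay between 7.19 and 7.32 RPKM. With it the log2 fold changes were 0.19 ± 0.081 and 0.11 ± 0.081, and without it Slc7a6 was called higher in both genotypes, at 0.19 and 0.22 (limma adjusted p = 0.00339 and 0.00138). The log2 fold changes of Slc7a8 were 0.024 ± 0.074 and -0.095 ± 0.074. Slc7a12 (0.002804 to 0.0697 RPKM), Slc7a13 (0.00262 to 0.06499 RPKM) and Slc7a15 (0.00531 to 0.154 RPKM) were not tested. Slc7a6os, the gene beside Slc7a6, had means of 10.7, 11.1, 10.3 and 10.9 RPKM and was not called, at 0.044 ± 0.052 and 0.09 ± 0.052. Without saline replicate 4 labelled Lcn2-/- the latter was 0.13 and was called (limma adjusted p = 0.0252).

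The cationic amino acid transporters of Slc7 (5 genes, all tested) gave 2 higher and 0 lower in wild type, and 2 higher and 1 lower in mice labelled Lcn2-/-. Slc7a2, the inducible carrier of arginine, was at 2.95, 3.27, 3.11 and 2.99 RPKM in wild-type saline and 4.02, 4.19, 4.48 and 4.92 RPKM in wild-type LPS libraries. In mice labelled Lcn2-/- it was at 3.03, 3.04, 3.13 and 3.304 RPKM after saline and 4.84, 4.70, 4.64 and 5.098 RPKM after LPS. The groups were apart in both genotypes, and the log2 fold changes were 0.51 ± 0.061 and 0.63 ± 0.061 (limma adjusted p = 1.05e-05 and 7.13e-07).

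Slc7a4, an orphan relative of the arginine carriers, was at 10.3, 9.51, 8.99 and 9.31 RPKM in wild-type saline and 12.9, 11.6, 12.7 and 11.4 RPKM in wild-type LPS libraries, and at 9.803 to 10.5 and 10.9 to 12.3 RPKM in mice labelled Lcn2-/-. The groups did not overlap, with log2 fold changes of 0.35 ± 0.054 and 0.19 ± 0.054 (limma adjusted p = 0.000161 and 0.009955). It shares 13.3% of its exon bases with P2rx6, which gave 0.065 ± 0.098 and -0.16 ± 0.098. Slc7a1, the constitutive carrier of cationic amino acids, was at 3.47 to 4.26 RPKM after saline and 3.24 to 3.54 RPKM after LPS in mice labelled Lcn2-/-, which overlap. Its call, at -0.18 ± 0.061 (limma adjusted p = 0.0243), was lost under 6 other settings, among them the removal of GC content and length trends and the omission of saline replicate 1 or 4 or LPS replicate 1 or 2 labelled Lcn2-/- (adjusted p up to 0.132). The most abundant of the 5, Slc7a14, a lysosomal member of neurons, gave 0.095 ± 0.039 and 0.042 ± 0.039 and was not called. Its means were 10.4, 11.1, 10.8 and 11.1 RPKM in wild-type saline, wild-type LPS, saline labelled Lcn2-/- and LPS labelled Lcn2-/- brain. Slc7a3, a neuronal arginine carrier, had means of 2.52, 2.44, 2.555 and 2.403 RPKM in the same order of groups.

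**Figure D4:**
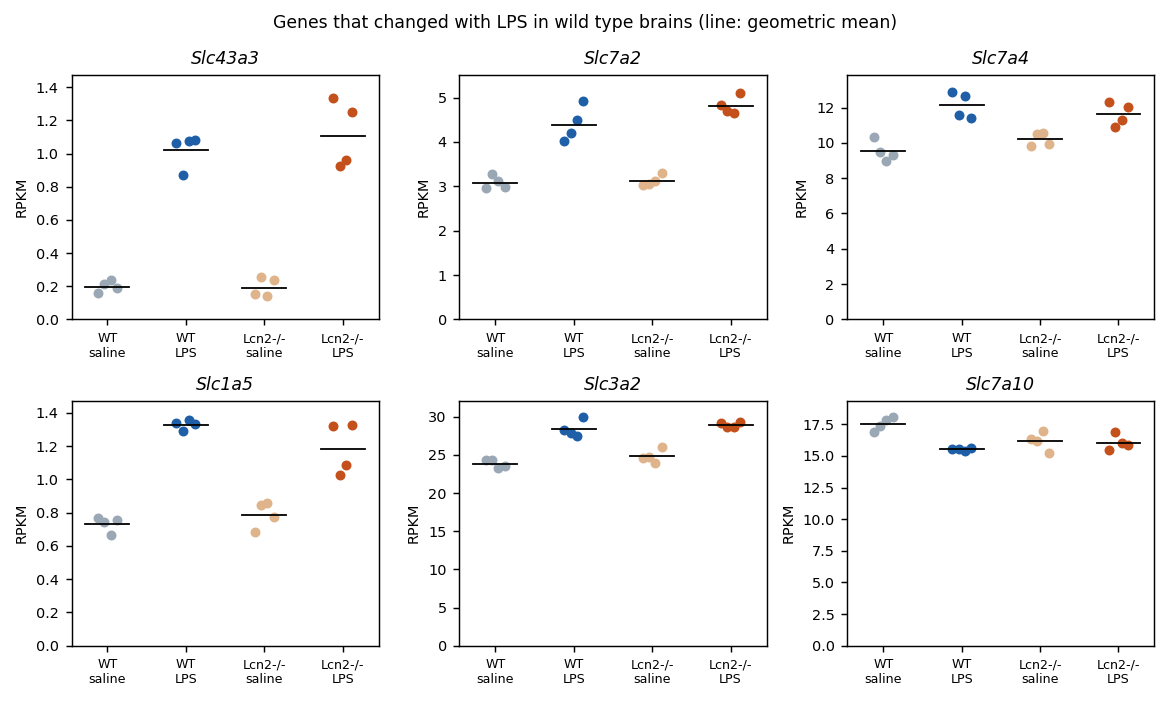
RPKM of Slc43a3, Slc7a2, Slc7a4, Slc1a5, Slc3a2 and Slc7a10 in each library by group (linear axes from 0; points are libraries, n = 4, and lines geometric means). The LPS libraries of Slc43a3, Slc7a2, Slc7a4, Slc1a5 and Slc3a2 lie above the saline libraries in each genotype, and Slc7a10 is lower with LPS in wild type, where the LPS libraries lie between 15.4 and 15.7 RPKM.

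The Slc38 transporters (10 genes, 7 tested) gave 0 higher and 3 lower in wild type and 0 higher and 5 lower in mice labelled Lcn2-/-, with median log2 fold changes of -0.12 and -0.31. Slc38a3, the astrocytic glutamine carrier also present at the blood-brain barrier, was at 11.1, 10.1, 10.2 and 10.9 RPKM in wild-type saline and 7.24, 7.03, 6.84 and 7.49 RPKM in wild-type LPS libraries. Under the Lcn2-/- label it was at 10.7, 11.2, 10.8 and 10.7 RPKM after saline and 6.28, 7.66, 7.49 and 6.92 RPKM after LPS. No LPS library reached the lowest saline library, and Slc38a3 fell, at -0.56 ± 0.056 and -0.62 ± 0.056 (limma adjusted p = 1.24e-06 and 2.74e-07; interaction -0.055 ± 0.079, adjusted p = 0.675). Of 8 endothelial markers, 2 were higher and 4 lower in wild type and 1 higher and 5 lower in mice labelled Lcn2-/-. Over all tested genes the shares were 11.4% higher and 13.9% lower, and 20.7% and 27.7%. The marker sums were 59.8 to 69.6 RPKM in wild-type saline and 54.3 to 62.5 RPKM in wild-type LPS libraries. They were 48.9 to 61.0 RPKM in saline and 51.0 to 61.8 RPKM in LPS libraries labelled Lcn2-/-. The part of these markers in the fall of Slc38a3 was not tested.

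Slc38a1, which supplies neurons with glutamine, was at 25.99, 25.9, 27.1 and 26.8 RPKM in wild-type saline and 22.9, 23.4, 22.55 and 23.85 RPKM in wild-type LPS libraries. It was at 25.9 to 29.0 RPKM in saline and 21.8 to 23.1 RPKM in LPS libraries labelled Lcn2-/-. The groups were apart, with log2 fold changes of -0.19 ± 0.036 and -0.26 ± 0.036 (limma adjusted p = 0.0009035 and 2.88e-05). Slc38a2, a neutral amino acid carrier induced by amino acid shortage, was at 28.4, 30.1, 26.6 and 28.3 RPKM in wild-type saline and 27.1, 26.02, 29.5 and 26.25 RPKM in wild-type LPS libraries, which overlapped. For the Lcn2-/- label it was at 29.4, 29.1, 28.5 and 33.3 RPKM after saline and 22.2, 23.65, 23.7 and 22.98 RPKM after LPS, and these LPS libraries lay below all 12 others. The log2 fold change was -0.059 ± 0.053 in wild type and -0.38 ± 0.053 in mice labelled Lcn2-/- (limma adjusted p = 3.34e-05), and the difference was -0.32 ± 0.075 (limma adjusted p = 0.0203; -0.27 and 0.0132 without saline replicate 4 labelled Lcn2-/-).

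Slc38a7, a lysosomal glutamine carrier, was at 5.35 to 5.73 RPKM in wild-type saline, 4.33 to 5.13 RPKM in wild-type LPS, 5.26 to 6.285 RPKM in saline labelled Lcn2-/- and 4.12 to 4.91 RPKM in LPS labelled Lcn2-/- libraries. It fell in both genotypes, at -0.22 ± 0.069 and -0.31 ± 0.069 (limma adjusted p = 0.0289 and 0.00175); the wild-type call was lost without wild-type saline replicate 1 or 4 or wild-type LPS replicate 2 or 4 (adjusted p up to 0.103). Slc38a6, an orphan member found at excitatory synapses, had saline means of 3.84 RPKM in wild type and 3.89 RPKM under the Lcn2-/- label. It was at 3.34, 3.59, 3.795 and 3.47 RPKM in wild-type LPS and 3.06, 2.97, 2.97 and 3.22 RPKM in LPS libraries labelled Lcn2-/-, the latter below all 12 others. Its log2 fold changes were -0.12 ± 0.058 and -0.35 ± 0.058 (limma adjusted p = 0.1555 and 0.000144).

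The lysosomal arginine sensor Slc38a9 had means of 2.86, 2.87, 2.935 and 2.69 RPKM and Slc38a10 of 9.002, 8.55, 8.604 and 8.38 RPKM in wild-type saline, wild-type LPS, saline labelled Lcn2-/- and LPS labelled Lcn2-/- brain, and neither was called. Slc38a10 gave -0.074 ± 0.062 and -0.037 ± 0.062, and without saline replicate 4 labelled Lcn2-/- it was called lower in mice of that label, at -0.12 (limma adjusted p = 0.0199). Below the filter were 3 members: Slc38a4 (0.122 to 0.225 RPKM), Slc38a8 (0.0389 to 0.08496 RPKM) and Slc38a11. Slc38a11 was at 0.329, 0.291, 0.3498 and 0.473 RPKM in saline and 0.0449, 0.08901, 0.0527 and 0.0875 RPKM in LPS libraries labelled Lcn2-/-, and at 0.303 to 0.386 and 0.198 to 0.2525 RPKM in the wild-type groups. The low end of the whole distribution was also lower in LPS libraries, with a 25th percentile of -5.78 to -4.58 log2 RPKM against -4.12 to -2.73 in saline libraries, so no change is read from members under 0.5 RPKM.

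Of the Slc36 proton-coupled transporters (4 genes, 2 tested), Slc36a1 was called and Slc36a4 was not. Slc36a1, which exports small amino acids from lysosomes, was at 8.42, 8.66, 8.39 and 8.45 RPKM in wild-type saline and 8.33, 8.38, 9.004 and 8.22 RPKM in wild-type LPS libraries, which overlapped. It was at 8.77, 8.92, 9.03 and 10.1 RPKM in saline and 7.22, 7.48, 7.64 and 7.99 RPKM in LPS libraries labelled Lcn2-/-, the latter below all 12 others. The log2 fold change was -0.00057 ± 0.047 in wild type and -0.28 ± 0.047 in mice labelled Lcn2-/- (limma adjusted p = 0.000187), and the difference was -0.28 ± 0.067 (limma adjusted p = 0.0214; -0.23 and 0.0131 without saline replicate 4 labelled Lcn2-/-). Slc36a4, a carrier of proline and tryptophan, had means of 9.67, 10.5, 9.81 and 9.65 RPKM in wild-type saline, wild-type LPS, saline labelled Lcn2-/- and LPS labelled Lcn2-/- brain. Its log2 fold changes were 0.12 ± 0.048 and -0.024 ± 0.048, and without saline replicate 4 labelled Lcn2-/- it was called higher in wild type, at 0.12 (limma adjusted p = 0.0253). Slc36a2 (0.0473 to 0.156 RPKM) and Slc36a3 (0.00158 to 0.0516 RPKM) were not tested.

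Slc43a3, a carrier of purine nucleobases rather than amino acids, differed most after LPS among the 39. It was at 0.158, 0.213, 0.239 and 0.189 RPKM in wild-type saline and 1.07, 0.871, 1.07 and 1.08 RPKM in wild-type LPS libraries. In mice labelled Lcn2-/- it was at 0.151, 0.2555, 0.139 and 0.2403 RPKM after saline and 1.33, 0.926, 0.9598 and 1.25 RPKM after LPS. The log2 fold changes were 2.37 ± 0.22 and 2.54 ± 0.22, or 5.16-fold and 5.825-fold, with limma adjusted p-values of 5.01e-07 and 1.42e-07. Slc43a3 passed the filter through its LPS libraries alone, so the filter favoured a difference and these p-values carry that limit. The size depends on the scale: with 0.5 RPKM added to each value the changes were 1.12 and 1.21 for Slc43a3. The branched-chain amino acid carrier Slc43a2 had means of 5.905, 6.19, 6.035 and 5.66 RPKM in wild-type saline, wild-type LPS, saline labelled Lcn2-/- and LPS labelled Lcn2-/- brain and was not called, at 0.068 ± 0.043 and -0.093 ± 0.043, and Slc43a1 was not tested (0.0356 to 0.0947 RPKM).

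After saline, 0 of the 39 tested members differed by genotype label, where 8 of 17349 genes (0.0461%) were called in all, 0.0346% higher and 0.0115% lower. At an unadjusted limma p under 0.05 there were 4 members (Slc36a1, Slc6a15, Slc6a5 and Slc7a10) and 1897 genes, and the 2 groups did not overlap for 3 members, Slc36a1, Slc6a15 and Slc6a17, all higher in saline libraries labelled Lcn2-/- (7.69%, against 5.19% of all genes). The median log2 difference, labelled Lcn2-/- minus wild type, was 0.031 over the members and -0.0048 over all genes. Slc6a5 showed the largest estimate, -0.44 ± 0.19, with an adjusted p of 0.4399.

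After LPS, 8 members were lower and 0 higher in mice labelled Lcn2-/- than in wild type (20.5%, where 15.8% of all genes were called; 7.04% higher and 8.74% lower). They were Slc6a11 (-0.27 ± 0.066), Slc6a13 (-0.61 ± 0.11), Slc6a6 (-0.32 ± 0.086), Slc6a20a (-0.58 ± 0.12), Slc3a1 (-0.30 ± 0.067), Slc38a2 (-0.23 ± 0.053), Slc38a6 (-0.21 ± 0.058) and Slc36a1 (-0.16 ± 0.047), as log2 differences with SE. Thus 3 of 5 GABA, betaine, taurine and creatine transporters, 2 of 7 tested Slc38 transporters and 0 of the glutamate, glycine, cationic and light chain groups were lower. The median over the members was -0.054, against -0.0098 over all genes. The 2 LPS groups did not overlap for 11 members (28.2%, against 28% of all genes). In the same comparison 3 of 9 cerebellar markers were higher and 0 lower, 1 of 8 endothelial markers was higher and 3 lower, 2 of 8 meningeal fibroblast markers were lower, and 1 of 8 choroid plexus markers was higher; their part in the transporter differences was not tested.

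Of these 8, 5 kept their call under every other setting. Slc36a1 lost its call with no filter and without LPS replicate 1, 2 or 3 of either genotype (adjusted p up to 0.0974). Slc38a6 lost it without LPS replicate 2 or 3 of either genotype (up to 0.0698), and Slc6a6 without wild-type LPS replicate 1 or LPS replicate 3 labelled Lcn2-/- (up to 0.0755). The count ranged from 5, without LPS replicate 3 labelled Lcn2-/-, to 10, without saline replicate 4 labelled Lcn2-/-. Calls over all genes moved in the same way. With every library 1517 of 17349 were lower, without that LPS replicate 801 of 17306, and without that saline replicate 2794 of 17261. Without saline replicate 4 labelled Lcn2-/-, Slc36a4 (-0.12) and Slc43a2 (-0.13) were also called lower and Slc1a6 (0.21) higher. Higher calls over all genes then came to 2375, against 1222 with every library. Slc3a1 and Slc6a20a are among the genes that share exon bases with another measured gene, and without the members that share 10% or more of their exon bases 6 of 33 were lower and 0 higher.

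The LPS effect itself differed by genotype label for 4 of the 39 members, Slc6a13, Slc3a1, Slc38a2 and Slc36a1, each with the lower value in mice labelled Lcn2-/- (10.3%, where 8.82% of all genes were called; 3.9% higher and 4.92% lower). Without the members that share 10% or more of their exon bases with another measured gene, 3 of 33 were lower and 0 higher. The median interaction over the members was -0.078, against -0.0026 over all genes. All 4 kept their call in each of the 22 other settings tried, with the highest adjusted p at 0.0456 for Slc36a1 and for Slc38a2. Without saline replicate 4 labelled Lcn2-/-, which held higher values than its group for Slc3a1, Slc38a2 and Slc36a1, these 4 were called along with Slc6a20a (-0.52) and Slc6a6 (-0.26). Over all genes 1221 of 17261 were lower in that setting, against 853 of 17349 with every library. The 4 describe different patterns: Slc6a13 fell in both genotypes, and Slc3a1, Slc38a2 and Slc36a1 fell in mice labelled Lcn2-/- while wild-type values gave 0.034, -0.059 and -0.00057.

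**Figure D5:**
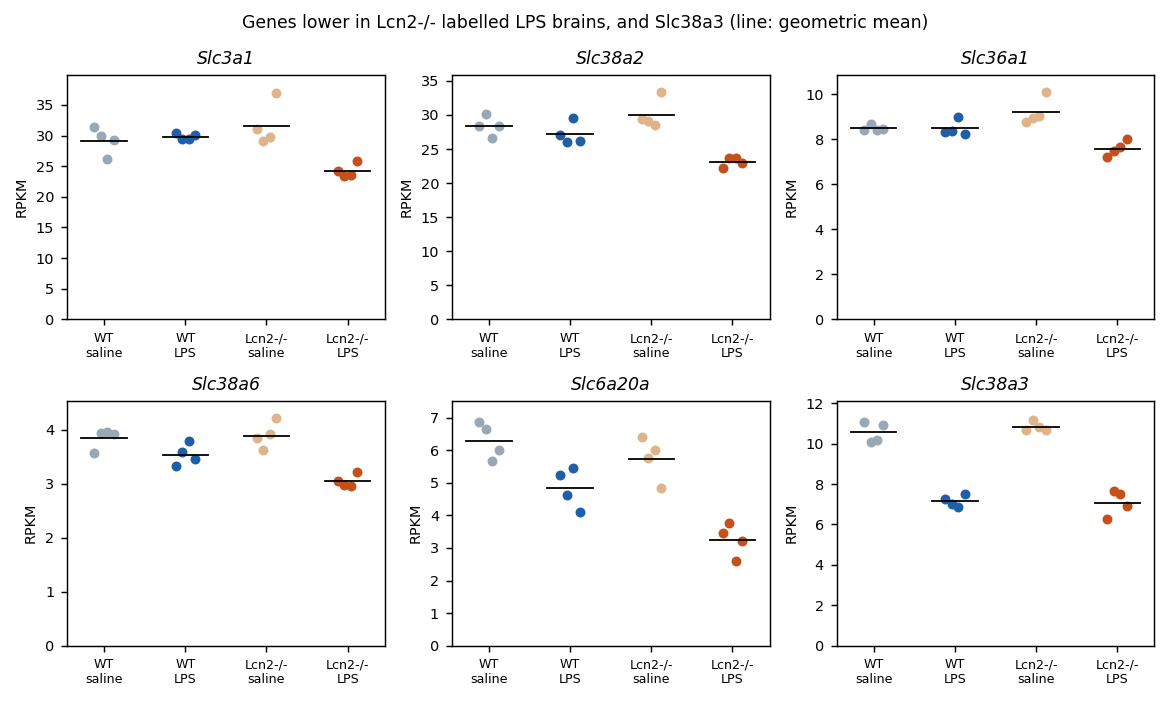
RPKM of Slc3a1, Slc38a2, Slc36a1, Slc38a6, Slc6a20a and, for contrast, Slc38a3 in each library by group (linear axes from 0; points are libraries, n = 4, and lines geometric means). For all but Slc38a3 the 4 LPS libraries labelled Lcn2-/- lie below every other library, while Slc38a3 has overlapping LPS groups.

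Genes that work with these carriers were read from lists. For scale, 11.4% of all tested genes were higher and 13.9% lower after LPS in wild type. In mice labelled Lcn2-/- 20.7% were higher and 27.7% lower. The median log2 fold changes over all tested genes were -0.025 and -0.028. A list of 25 genes held Atf4 and targets of ATF4, the transcription factor of the amino acid response that also drives several transporters. After LPS 10 of them were higher and 2 lower in wild type, and 12 higher and 3 lower in mice labelled Lcn2-/- (median log2 fold changes 0.081 and 0.14). The largest rises in wild type were those of Cebpb (1.51 ± 0.19), Atf3 (1.08 ± 0.23) and Ddit4 (0.96 ± 0.089), and the genes lower were Vldlr (-0.42 ± 0.049) and Phgdh (-0.34 ± 0.06). In mice labelled Lcn2-/- they were Atf3 (3.07 ± 0.23), Cebpb (2.16 ± 0.19) and Trib3 (1.20 ± 0.33), with Vldlr (-0.49 ± 0.049), Cebpg (-0.41 ± 0.098) and Phgdh (-0.17 ± 0.06) lower. Among those not called in wild type were Atf4 itself (-0.051 ± 0.041), Asns (-0.0016 ± 0.031), Ddit3 (-0.17 ± 0.067), Chac1 (-0.064 ± 0.09) and Trib3 (0.30 ± 0.33). Under the Lcn2-/- label Asns was called higher (0.12 ± 0.031), and Atf4, Ddit3 and Chac1 were not called. Slc38a2, itself known as a target of this response, was not called in wild type and fell in mice labelled Lcn2-/-. After LPS, 5 of the 25 were higher and 2 lower in mice labelled Lcn2-/- than in wild type, and 1 was higher and 1 lower in the interaction, Atf3 (1.99 ± 0.32) and Pck2 (-0.23 ± 0.068). Over all tested genes 7.04% were higher and 8.74% lower by label after LPS, and 3.9% and 4.92% in the interaction.

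Of 25 tested genes for neurotransmitter synthesis, breakdown and vesicle loading, 2 were higher and 4 lower in wild type, and 1 higher and 7 lower in mice labelled Lcn2-/- (medians -0.034 and -0.064). Over all tested genes the shares were 11.4% higher and 13.9% lower in wild type, and 20.7% and 27.7% in mice labelled Lcn2-/-. Gldc, which cleaves glycine, fell in both genotypes, at -0.74 ± 0.066 and -0.73 ± 0.066. Gatm, which makes the creatine precursor, also fell, at -0.54 ± 0.071 and -0.55 ± 0.071, while Slc6a8 rose. Glul, the astrocytic glutamine synthetase, rose by 0.23 ± 0.031 in wild type and was the 1 gene of the list called in the interaction, at -0.19 ± 0.044. Of 25 tested genes for amino acid sensing at the lysosome by mTORC1, 3 were higher and 2 lower in wild type, and 4 higher and 6 lower in mice labelled Lcn2-/- (medians -0.020 and -0.025). In the interaction 3 were lower, Rragd (-0.34 ± 0.086), Flcn (-0.29 ± 0.073) and Sesn1 (-0.27 ± 0.079), beside Slc36a1. Of the 5 family genes left out, 1 was higher and 2 lower after LPS in each genotype, and Slc7a11, the cystine and glutamate exchanger that pairs with Slc3a2, had an interaction of 0.66 ± 0.099, opposite in sign to the 4 called members.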

How the data were processed

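Brain RNA was analysed in 16 libraries, in 4 groups of 4 libraries taken from the genotype and injection labels. The table deposited by the authors holds 1 column of log2 RPKM for each sample, made by conditional quantile normalization as its name says. Per the submitters' processing notes, the genome build was mm10. The sources used here give no aligner, counting tool, strand setting, annotation or filter. No counts were analysed, so the depth of the libraries and its precision are unknown. RPKM printed here is 2 to the power of the deposited log2 value.

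The members and lists were chosen with earlier results of these data known. Genes with log2 RPKM of at least -1 in at least 3 samples were tested (17349 of 33289). A group-means model over all 16 libraries was fitted with limma 3.58.1 in R 4.3.3 (empirical Bayes with a trend, two-sided, Benjamini-Hochberg over all tested genes, called at an adjusted p under 0.05). The labels describe separate samples, and p-values measure the spread between these. Of 59 genes found by the rule, 1 is not reported here, and it is left out of every count, sum and median over the members. Every other member is named with its level. Test values are given for called members and, in each role group, for the most abundant uncalled member, with others named for their overlap, neighbourhood or spread after their values were seen. From each list the named genes come from the 3 called ones with the largest change in each direction. For the ATF4 list some other genes, not called in wild type, are named after their values were seen. Positions are from GENCODE vM21 and promoter sequences from RefSeq. The procedure was tested on simulated data. Alternatives were other filters, 0.5 RPKM added before the log, equal library medians, removal of GC content and length trends, no trend in the prior variance, only the compared groups in the fit, and each library left out.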

Additional observations from a re-analysis of the deposited data

Results flagged for a closer look

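In 13 of 156 groups of 4 libraries (8.33%), 1 library lay farther from the other 3 than Dixon's critical value allows, which chance gives in about 1 in 20 groups. Of these, 4 were high values in saline replicate 4 labelled Lcn2-/-: Slc6a6 at 18.1 RPKM (others 13.2 to 13.7), Slc6a15 at 15.35 (12.9 to 13.3), Slc7a14 at 11.2 (10.6 to 10.7) and Slc7a6 at 9.79 RPKM (7.19 to 7.32). Wild-type saline replicate 1 was high for Slc1a1 at 14.6 RPKM (others 13.6 to 13.75) and low for Slc38a6 at 3.57 RPKM (3.92 to 3.96) and Slc6a5 at 2.545 RPKM (3.93 to 4.26). In wild-type LPS libraries, Slc43a3 was low in replicate 2 at 0.871 RPKM (1.07 to 1.08), Slc38a10 low in replicate 4 at 8.43 RPKM (8.58 to 8.61) and Slc7a1 low in replicate 1 at 3.28 RPKM (3.53 to 3.57). In libraries labelled Lcn2-/-, Slc7a7 was low in saline replicate 2 at 0.655 RPKM (0.871 to 0.889), Slc6a15 low in LPS replicate 1 at 12.03 RPKM (12.9 to 12.96) and Slc6a6 low in LPS replicate 3 at 7.795 RPKM (8.63 to 8.80).

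The LPS effect differed between genotype labels by a limma interaction test for 4 members. The log2 differences were -0.71 for Slc6a13, -0.42 for Slc3a1, -0.32 for Slc38a2 and -0.28 for Slc36a1, each negative where mice labelled Lcn2-/- had the lower response.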

How the results depend on the processing

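No paired analysis was possible because the labels give no replicate numbers, and those used here follow accession order. Of the called values, 13 of 16 for LPS in wild type, 19 of 22 for LPS in mice labelled Lcn2-/-, 5 of 8 for genotype after LPS and 4 of 4 interactions kept direction and call in every setting. Without a filter on low values, members lower after LPS came to 17 in wild type and 25 in mice labelled Lcn2-/-, the added ones all under 0.5 RPKM, and 1 member, Slc6a14, was higher in mice labelled Lcn2-/- after LPS. Over all genes that setting gave 16.75% higher among wild-type calls against 45.11%, and 21.96% against 42.79% in mice labelled Lcn2-/-. With GC content and length trends removed, 1 member, Slc7a2, was higher by genotype label after LPS. Small uncalled log2 values changed sign in that setting: -0.030 for Slc3a1, 0.020 for Slc6a17, -0.0071 for Slc6a3 and -0.0082 for Slc7a6os in wild type, 0.039 for Slc36a4 in mice labelled Lcn2-/-, -0.0016 for Slc43a2 by label after saline, and 0.034 after LPS and 0.026 in the interaction for Slc7a14. The cause was not tested.

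With each library left out in turn, members higher ranged from 7 to 10 and lower from 6 to 8 for LPS in wild type, from 7 to 10 and 14 to 15 for LPS in mice labelled Lcn2-/-, from 0 to 0 for both directions of genotype after saline, from 0 to 2 and 5 to 10 for genotype after LPS, and from 0 to 1 and 4 to 6 for the interaction. The 10 higher after LPS in mice labelled Lcn2-/- were found without their saline replicate 4, the 5 lower by label after LPS without LPS replicate 3 labelled Lcn2-/-, the 2 higher by label after LPS (Slc1a6 and Slc7a2) without wild-type LPS replicate 4, and the 1 higher in the interaction (Slc7a10) without wild-type saline replicate 1 or saline replicate 3 labelled Lcn2-/-. Calls over all genes moved as well. Lower ones by label after LPS ranged from 801, without LPS replicate 3 labelled Lcn2-/-, to 2794, without saline replicate 4 of that label. Over all members, no called value changed sign when a library was left out, and uncalled values did so 13 times for LPS in wild type, 6 times for LPS in mice labelled Lcn2-/-, 27 times by label after saline, 16 times by label after LPS and 12 times in the interaction. Those among the most abundant uncalled member of each role group lay on both sides of 0 for LPS in wild type (Slc6a3 -0.055 to 0.079, Slc3a1 -0.018 to 0.070, Slc7a8 -0.015 to 0.071, Slc6a17 -0.015 to 0.0081) and in mice labelled Lcn2-/- (Slc38a10 -0.12 to 0.0099, Slc7a10 -0.039 to 0.013, Slc36a4 -0.055 to 0.022). Others of that kind did so by label after saline (Slc6a11 -0.073 to 0.028, Slc36a4 -0.025 to 0.052, Slc1a6 -0.080 to 3.6e-05), after LPS (Slc7a14 -0.025 to 0.017, Slc7a6os -0.051 to 0.0028, Slc6a3 -0.13 to 0.010) and in the interaction (Slc3a2 -0.043 to 0.0017).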
